A study of Mus musculus with 10 samples.

Results

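Cytochrome P450 genes of the Cyp2d and Cyp2j subfamilies were followed in mouse liver. The 7 members are Cyp2d9, Cyp2d10, Cyp2d22, Cyp2d26, Cyp2d40, Cyp2j5 and Cyp2j6, chosen as the rows of the deposited table that carry these symbols, out of 47702 genes in all and out of 23 rows of both subfamilies. The livers came from female mice in which Etnppl was knocked out in the whole body (KO) and from wild-type (WT) females. All of them had eaten chow for 20 weeks, while their age and strain, and which exons were targeted, are not given in the sources used here. Poly-A RNA was sequenced in 5 libraries per genotype, and the question was how the loss of Etnppl, a lyase of phosphoethanolamine, alters liver transcripts. The labels number the samples but do not state that each is a separate animal, so the p-values below measure only the spread between these samples.

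P450 enzymes sit in the membrane of the endoplasmic reticulum, hold a heme group and use electrons from P450 oxidoreductase to insert oxygen into steroids, fatty acids and drugs. Cyp2d genes form a cluster of close copies in the mouse. Cyp2d9 is known as a testosterone hydroxylase that male mouse liver makes in far greater amounts than female liver, under the pulse pattern of growth hormone, while Cyp2j enzymes turn arachidonic acid into epoxides and hydroxylated products.

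Values are FPKM, a fragment count set relative to the length of the transcript and to the library's total. A difference is the log2 difference KO minus WT of log2(FPKM + 0.5), which understates changes of low genes, and a gene is called when its limma p, adjusted by Benjamini-Hochberg over the 12247 genes that averaged 0.5 FPKM or more, is under 0.05. Etnppl was lower in every KO library (17.72 to 26.43 FPKM) than in every WT library (43.32 to 108.39 FPKM), and the KO mean was still 33.7% of the WT mean (limma adjusted p = 0.00504). Between libraries, Spearman correlations over genes were 0.977 to 0.988 within and 0.974 to 0.983 between genotypes. Relative depth ran from 0.911 to 1.09, and by genotype it was 1.04 in WT and 0.965 in KO. Hepatocyte markers summed to 55600 to 61000 FPKM in WT and 60800 to 66400 FPKM in KO. Most of this was Alb, with means of 41140 FPKM in WT and 43770 in KO (limma adjusted p = 0.24). Of the 6 markers, 1 was called as higher and 5 were not called, with 5 positive differences and 1 negative. Slc34a1, Slc12a1, Aqp2 and Kap of kidney tubule were listed at 0 in all 10 libraries, and Umod was at 0.14 FPKM in WT 3 only. Markers of Kupffer cells, the liver macrophages, summed to 284 to 329 FPKM in WT and 199 to 286 FPKM in KO, with 4 of 10 lower, and their part in the results was not tested. In bulk liver, fewer cells of a type and less RNA per cell cannot be told apart. The library WT 3 lay away from the other WT libraries in female-biased genes and had the highest Cyp2d9 of them, though not beyond Dixon's limit for that gene, so Cyp2d9 is given with and without it.

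Of the 7 members, Cyp2d9 and Cyp2j6 rose in KO, Cyp2d40 fell and 4 did not pass the test. Over all tested genes, 8.54% were called, 3.98% as higher and 4.56% as lower. The median difference of the members was -0.02, as it was over all tested genes. Groups of 5 libraries did not overlap for Cyp2d40 and Cyp2j6, against 8.87% of all tested genes. The 3 calls differ in size: Cyp2d9 more than doubled in its mean (a ratio of 2.33), Cyp2d40 went to 57.3% of its WT mean, and Cyp2j6 to 119%. Leaving out single libraries took the call from each of them, as given with each gene below.

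**Figure D1:**
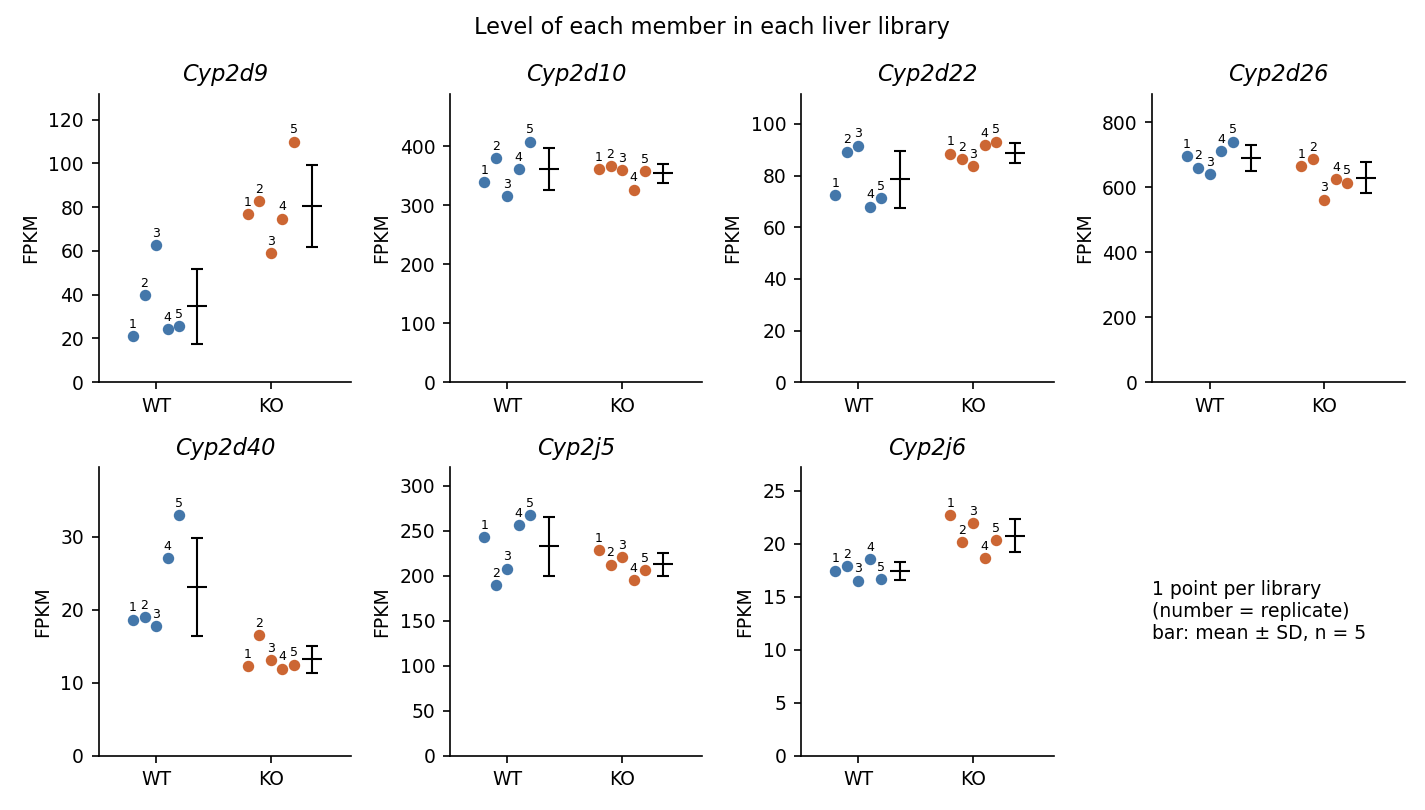
FPKM (vertical axis, from 0) of each of the 7 members in the 5 WT (blue) and 5 KO (orange) libraries, numbered by replicate, with the mean and SD of each genotype as a black bar. Cyp2d9 is higher in KO except that WT 3 (62.55) lies above KO 3 (58.91), and the KO points of Cyp2d40 all lie below the WT points.

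In WT the members spanned a wide range of levels, and their order was nearly the same in KO. Cyp2d26 was the most abundant (689 ± 40 FPKM, SD, n = 5), followed by Cyp2d10 (361 ± 35.7), Cyp2j5 (232.5 ± 33), Cyp2d22 (78.54 ± 11.1), Cyp2d9 (34.59 ± 17.2), Cyp2d40 (23.07 ± 6.67) and Cyp2j6 (17.41 ± 0.846). The libraries of neighbouring genes in this order did not overlap among the 5 highest. The ranges of Cyp2d9 and Cyp2d40 overlapped, as did those of Cyp2d40 and Cyp2j6. In KO the order began with Cyp2d26 (629.6 ± 47.9 FPKM), Cyp2d10 (354.5 ± 15.9) and Cyp2j5 (212.6 ± 13), and Cyp2d9 (80.58 ± 18.6) had come up to Cyp2d22 (88.67 ± 3.92), with overlapping ranges. Cyp2j6 (20.79 ± 1.59) and Cyp2d40 (13.22 ± 1.86) had exchanged places, without overlap. Relative spread between libraries was smaller in KO for 5 of the 7 members, all but Cyp2d26 and Cyp2j6, against 54.9% of 12236 tested genes.

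Cyp2d9 (ENSMUSG00000068086) lies on the plus strand at chr15:82433437-82456845 in GRCm38, the assembly of mm10. Its level was 20.89, 39.69, 62.55, 24.18 and 25.65 FPKM in WT 1 to WT 5. In KO 1 to KO 5 it was 76.68, 82.58, 58.91, 74.77 and 109.94 FPKM. Of the KO libraries, 4 were above every WT library, and the genotypes overlapped only through WT 3. The log2 difference was 1.30 (SE 0.283, 95% interval 0.672 to 1.929, limma adjusted p = 0.0223), and an exact permutation test over all arrangements of the libraries (two-sided) had p = 0.016. Without WT 3 the WT mean was 27.6 ± 8.3 FPKM (SD, n = 4), the ratio of means 2.92 and the log2 difference 1.54 (limma adjusted p = 0.00344). Since WT 3 is the highest WT library, a larger difference and separated groups follow from leaving it out and add no support. The call was lost without WT 5 (1.22, limma adjusted p = 0.0554) and without KO 5 (1.18, adjusted p = 0.0539).

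The stretch of promoter from 200 to 71 bases before the RefSeq start of Cyp2d9 is shown beside those of Cyp2d11, Cyp2d10 and Cyp2d40, because Cyp2d9 rose while Cyp2d11 and Cyp2d10, the most identical to it of the tested Cyp2d transcripts that were aligned, did not pass the test and Cyp2d40 fell. GABP, a factor that binds the letters TTCCGG, is known for acting on the Cyp2d9 promoter. The sequences are from RefSeq, GRCm38.p6, written 5′ to 3′ on the gene's strand. The GENCODE gene of Cyp2d9 begins before this RefSeq start, so its stretch lies within that gene, but it overlaps no annotated exon. Capitals mark TTCCGG in Cyp2d9 and the 6 bases aligned with it in the others.
Cyp2d9, chr15:82452177-82452306, plus strand: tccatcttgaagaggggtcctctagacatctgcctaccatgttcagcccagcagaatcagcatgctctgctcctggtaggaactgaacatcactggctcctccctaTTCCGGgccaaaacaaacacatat
Cyp2d11, chr15:82394093-82394222, minus strand: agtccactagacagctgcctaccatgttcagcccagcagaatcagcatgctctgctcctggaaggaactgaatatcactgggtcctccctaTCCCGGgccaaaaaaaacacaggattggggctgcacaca
Cyp2d10, chr15:82407265-82407394, minus strand: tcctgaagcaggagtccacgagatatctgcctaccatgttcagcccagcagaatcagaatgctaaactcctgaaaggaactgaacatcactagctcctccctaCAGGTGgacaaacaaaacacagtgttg
Cyp2d40, chr15:82764193-82764322, minus strand: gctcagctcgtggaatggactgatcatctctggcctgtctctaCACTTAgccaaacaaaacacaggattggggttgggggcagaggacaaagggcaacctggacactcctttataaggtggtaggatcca
Counted from 1 at the first T of TTCCGG in Cyp2d9, the aligned letters of Cyp2d11 carry T2C. Those of Cyp2d10 carry T1C, T2A, C3G, C4G and G5T, and those of Cyp2d40 carry T1C, T2A, C4T, G5T and G6A. TTCCGG begins 94 bases before the start of Cyp2d9. The aligned letters begin at -109 in Cyp2d11, -97 in Cyp2d10 and -157 in Cyp2d40. The RefSeq start of Cyp2d40 lies inside its GENCODE gene, which ends at 82764183, and its stretch is shifted against the others. In the window from 250 bases before to 50 after the start, Cyp2d9 and Cyp2d11 were 89.0% identical over 300 aligned columns, Cyp2d9 and Cyp2d10 84.5% over 297, and Cyp2d9 and Cyp2d40 78.9% over 237, the rest of the window being unaligned.

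Of the 7 members, 6 matched a RefSeq promoter window, as did 12 of the 23 family genes, with 13 windows. Cyp2d22 had no entry. TTCCGG was searched on both strands and was found in 1 of the 13 family windows, that of Cyp2d9, and in 14.9% of all 32851 windows of this length. TTCNNNGAA, the core that STAT5 binds, was in the windows of Cyp2j11 and Cyp2j12 (8.3% of all windows), and ATCAAT, bound by HNF6 and CUX2, was in none of the 13 (7.54% of all). CAAAGT, part of the HNF4 element, was in those of Cyp2d26, Cyp2j8 and Cyp2j9 (14.4%). TTGCNNAA, part of the C/EBP element, was in Cyp2j8 and Cyp2j9 (10.8%), and GTTAAT, part of the HNF1 element, in Cyp2d26 (7.1%). In Cyp2j9 the CAAAGT and TTGCNNAA matches overlap. These are matches of letters in a short window, not sites of binding.

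Among transcripts that encode these factors, Gabpb1, a subunit of GABP, rose from 5.34 ± 0.754 to 7.082 ± 0.669 FPKM (SD, n = 5 each, log2 difference 0.38, limma adjusted p = 0.0361). It kept the call only without WT 2, WT 3 or KO 1, and the adjusted p was up to 0.0819 without 1 of the other 7 libraries and 0.0654 with no filter on low values. Gabpa, the subunit that binds DNA, was at 12.83 ± 0.486 and 13.04 ± 0.651 FPKM (0.02, limma adjusted p = 0.852). Of 19 transcription factors of liver P450 genes, Gabpb1 rose, none fell and 18 did not pass, with a median difference of -0.03. A link of GABP or TTCCGG to the rise of Cyp2d9 was not tested, nor was the difference between Cyp2d9 and its copies.

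The other Cyp2d members that are close copies or abundant did not pass the test. Cyp2d10 (ENSMUSG00000094806, chr15:82402846-82407195, minus strand) was at 339.14, 380.39, 316.04, 361.19 and 408.13 FPKM in WT 1 to WT 5. In KO 1 to KO 5 it was 361.79, 366.32, 359.39, 326.53 and 358.24 FPKM, all within the WT range. Its log2 difference was -0.02 (95% interval -0.171 to 0.128, limma adjusted p = 0.88), with a sign that turned under quantile normalization and without WT 5 or KO 4.

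Cyp2d26 (ENSMUSG00000022445, chr15:82790101-82794294, minus strand) had rank 115 by level among the tested genes. It was at 694.83, 660.33, 639.22, 710.47 and 740.07 FPKM in WT and at 663.98, 685.14, 561.68, 623.87 and 613.31 FPKM in KO. Of the KO libraries, 3 were below every WT library and 2 were within the WT range. Its log2 difference was -0.13 (95% interval -0.269 to 0.006, limma adjusted p = 0.225, exact permutation p = 0.071).

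Cyp2d22 (ENSMUSG00000061740, chr15:82370527-82380260, minus strand), often put forward as the mouse counterpart of human CYP2D6, was at 72.47, 89.32, 91.65, 67.99 and 71.26 FPKM in WT 1 to WT 5. In KO 1 to KO 5 it was 88.53, 86.25, 83.61, 91.81 and 93.16 FPKM. WT 2 and WT 3 lay among the KO libraries, and the other 3 WT libraries lay below all of them. The log2 difference was 0.18 (95% interval -0.002 to 0.37, limma adjusted p = 0.21, exact permutation p = 0.12).

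Cyp2d40 (ENSMUSG00000068083, chr15:82759833-82764183, minus strand) was the member that fell. It was at 18.64, 18.94, 17.76, 27.08 and 32.93 FPKM in WT 1 to WT 5. In KO 1 to KO 5 it was 12.26, 16.46, 13.04, 11.9 and 12.45 FPKM. Every KO library lay below every WT library, and WT 4 and WT 5 were the highest of all. The log2 difference was -0.75 (SE 0.167, 95% interval -1.113 to -0.381, limma adjusted p = 0.0218), and the exact permutation p was 0.0079, the smallest possible for 5 against 5 libraries. The call was lost without KO 4 (-0.71, limma adjusted p = 0.0539) or KO 5 (-0.73, adjusted p = 0.0535), while leaving out WT 4 or WT 5 kept it.

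**Figure D2:**
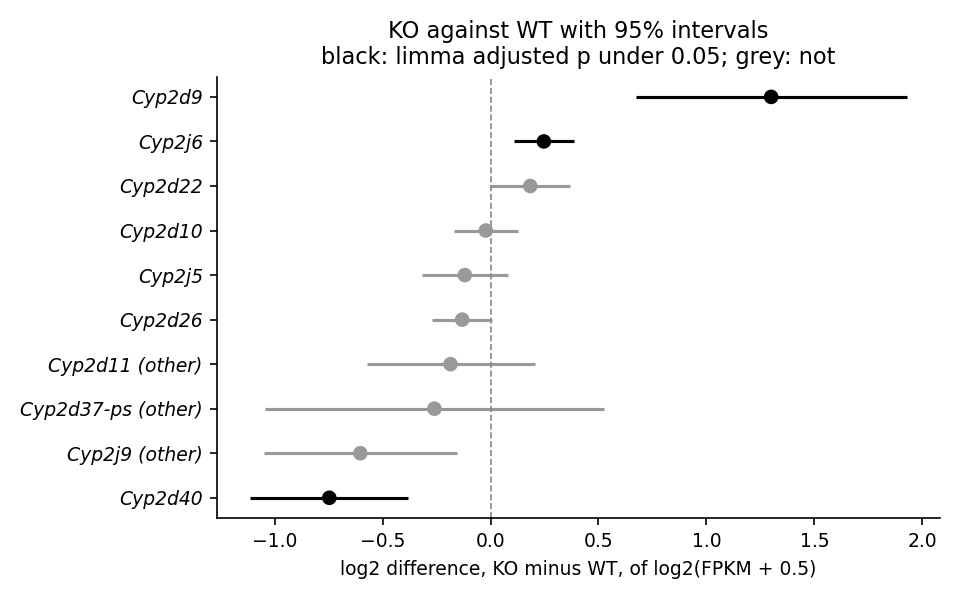
Log2 difference KO minus WT (horizontal axis) with its 95% interval for the 10 tested Cyp2d and Cyp2j genes, members and others, in black where the limma adjusted p was under 0.05 and in grey where it was not. Cyp2d9 (1.30) lies highest and Cyp2d40 (-0.75) lowest, and the interval of Cyp2d10 (-0.171 to 0.128) is centred near 0.

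The summed FPKM of all Cyp2d genes was 1204 ± 64.9 in WT and 1181 ± 62.5 in KO (SD, n = 5 each). Within that sum, Cyp2d9 took 2.91 ± 1.57% in WT and 6.8 ± 1.4% in KO. Cyp2d26 took 57.2 ± 1.91% and 53.3 ± 1.92%, and Cyp2d10 took 29.9 ± 1.56% and 30.1 ± 1.66%. Cyp2d22 held 6.56 ± 1.15% and 7.52 ± 0.435%, and Cyp2d40 held 1.9 ± 0.448% and 1.12 ± 0.135%. The means of the Cyp2d total thus lay within 1 SD of each other while its makeup differed. These shares are descriptions without a test.

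Close copies bear on these values, since a read that matches several copies has to be divided among them. Over aligned bases without gaps, the transcripts of Cyp2d10 and Cyp2d11 were 94.2% identical, those of Cyp2d9 and Cyp2d11 93.4%, and those of Cyp2d9 and Cyp2d10 91.6%. Of all runs of 50 bases in the transcript, 40.5% were shared with another family gene in Cyp2d10, 37.2% in Cyp2d11 and 29% in Cyp2d9. For Cyp2d9 the largest sharers were Cyp2d12 (10.7%), listed at 0 to 0.13 FPKM, and Cyp2d10 (9.26%). Cyp2d40 shared 24.1%, of which 13.4% with the pseudogene Cyp2d41-ps at 0.12 to 0.32 FPKM. Cyp2d26 shared 10.5% and Cyp2d22 6.14%. Cyp2j6 shared 0.422% and Cyp2j5 0.174%. The split of reads among Cyp2d9, Cyp2d10 and Cyp2d11 is therefore uncertain, as is that between Cyp2d40 and its copies. The Cyp2j members share few such runs.

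Of the Cyp2j members, the abundant Cyp2j5 did not pass the test and the lower Cyp2j6 rose, although the difference between them was not tested. Cyp2j5 (ENSMUSG00000052520, chr4:96628773-96664154, minus strand), an arachidonic acid epoxygenase of liver and kidney, was at 242.71, 189.23, 207.63, 255.75 and 267.27 FPKM in WT 1 to WT 5. In KO 1 to KO 5 it was 228.62, 212.13, 220.9, 195.18 and 206.15 FPKM, all within the WT range. The log2 difference was -0.12 (95% interval -0.319 to 0.081, limma adjusted p = 0.465, exact permutation p = 0.27).

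Cyp2j6 (ENSMUSG00000052914, chr4:96516138-96553661, minus strand), a member known from intestine as well as liver, was at 17.46, 17.87, 16.54, 18.55 and 16.64 FPKM in WT 1 to WT 5. In KO 1 to KO 5 it was 22.72, 20.19, 21.97, 18.67 and 20.38 FPKM. Every KO library was above every WT library, by a narrow margin between WT 4 (18.55) and KO 4 (18.67). The log2 difference was 0.25 (SE 0.063, 95% interval 0.109 to 0.385, limma adjusted p = 0.0354), with an exact permutation p of 0.0079. This call was the least stable of the 3: it was kept only without WT 4 or KO 4, and the adjusted p was 0.052 to 0.0797 without 1 of the other 8 libraries and 0.0591 with no filter on low values.

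The summed Cyp2j level was 252.6 ± 32.6 FPKM in WT and 235.1 ± 14.3 in KO. Cyp2j5 made up 91.9 ± 1.26% of it in WT and 90.4 ± 0.147% in KO, and Cyp2j6 6.99 ± 0.998% and 8.84 ± 0.193%. By library, the Cyp2j6 share was 5.81 to 8.52% in WT and 8.61 to 9.02% in KO.

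Of the 16 other rows of both subfamilies, 3 passed the filter and 13 did not, 9 of these being listed at 0 in every library. Cyp2j9, known from brain, was at 2.14, 2.65, 3.78, 2.32 and 2.45 FPKM in WT and at 1.72, 2.08, 0.72, 2.08 and 1.53 FPKM in KO. Its groups did not overlap (exact permutation p = 0.0079), but the log2 difference of -0.60 (SE 0.205) did not pass (limma adjusted p = 0.0926). It lies between Cyp2j6 and Cyp2j5, and the 3 differences were 0.25, -0.60 and -0.12 in that order. Cyp2d11 was at 2.664 FPKM in WT and 2.244 in KO (-0.19, limma adjusted p = 0.57). The pseudogene Cyp2d37-ps was at 14.89 ± 7.21 and 11.47 ± 3.04 FPKM (-0.26, limma adjusted p = 0.706), and its highest libraries were WT 4 (20.69) and WT 5 (23.36), which were also the highest for Cyp2d40.

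The Cyp2d genes span 423.8 kb of chromosome 15 (chr15:82370527-82794294) and the Cyp2j genes 636.6 kb of chromosome 4 (chr4:96027534-96664154), while Etnppl lies on chromosome 3. Cyp2d9 and Cyp2d40, with opposite changes, are in the same cluster. Outside the Cyp2d cluster the nearest tested genes were Ndufa6, a subunit of respiratory complex I (0.13, limma adjusted p = 0.34), and Tcf20, a transcriptional co-regulator (-0.13, adjusted p = 0.292). Those outside the Cyp2j cluster were Hook1, a microtubule linker (-0.07, limma adjusted p = 0.599), and Gm12696 (-0.16, adjusted p = 0.507). Gm12696 begins at chr4:97521428, farther from the Cyp2j cluster than that cluster is long. The flank just beyond Cyp2j5 thus held no tested gene. None of the 4 neighbours was called by limma, and 0 had an unadjusted p under 0.05.

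**Figure D3:**
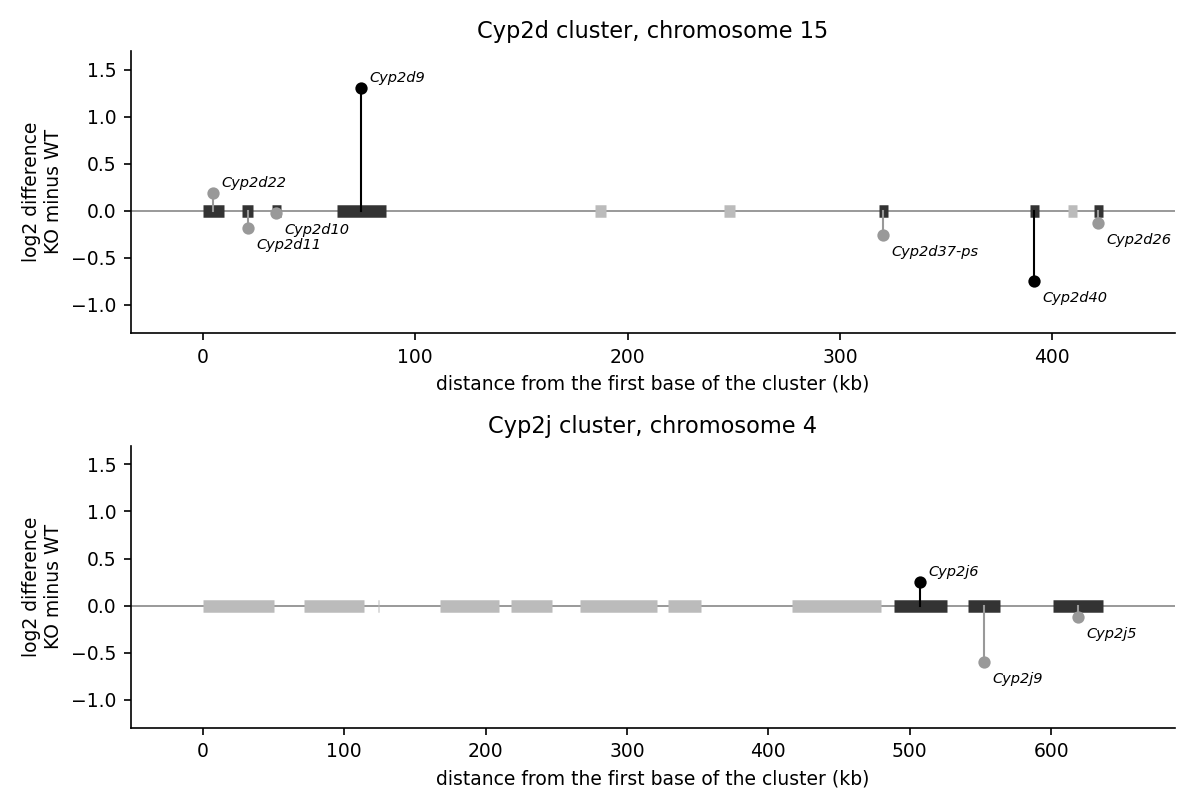
Position of each family gene as distance in kb from the first base of its cluster (horizontal axis; dark bars tested genes, pale bars genes under the filter) and its log2 difference KO minus WT (vertical axis; black called, grey not). Cyp2d9 (1.30) and Cyp2d40 (-0.75) point in opposite directions within the 423.8 kb cluster, and Cyp2j6 (0.25) and Cyp2j9 (-0.60) within the 636.6 kb cluster.

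Apart from genotype, members varied together in some pairs. With the genotype mean removed, 21 pairs were compared over the 10 libraries by permutation tests over libraries, and 2 passed after adjustment over the 21. Cyp2d9 and Cyp2d22 varied in the same direction (Pearson r = 0.88, permutation p = 0.00065, adjusted p = 0.0082; Spearman rho = 0.84, permutation p = 0.0035, adjusted p = 0.037), and r was 0.84 without WT 3 and KO 5, the libraries farthest out in Cyp2d9. Cyp2d22 and Cyp2j5 varied in opposite directions (r = -0.89, permutation p = 0.00078, adjusted p = 0.0082; rho = -0.89, permutation p = 0.0011, adjusted p = 0.023), and r was -0.80 without WT 2 and WT 3. The next pair, Cyp2d10 and Cyp2d40, had r = 0.71 (permutation p = 0.02, adjusted p = 0.12), which was 0.31 without WT 3 and WT 5. Cyp2d9 and Cyp2d40 had r = -0.41 (permutation p = 0.24, adjusted p = 0.43). Each genotype has too few libraries for a value of its own. For Cyp2d9, Cyp2d22 and Cyp2j5 the deviations were larger in WT than in KO. The permutations shuffled libraries across both genotypes and took no account of this or of the removed means. The permutation p-values of the pairs may therefore be too small.

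**Figure D4:**
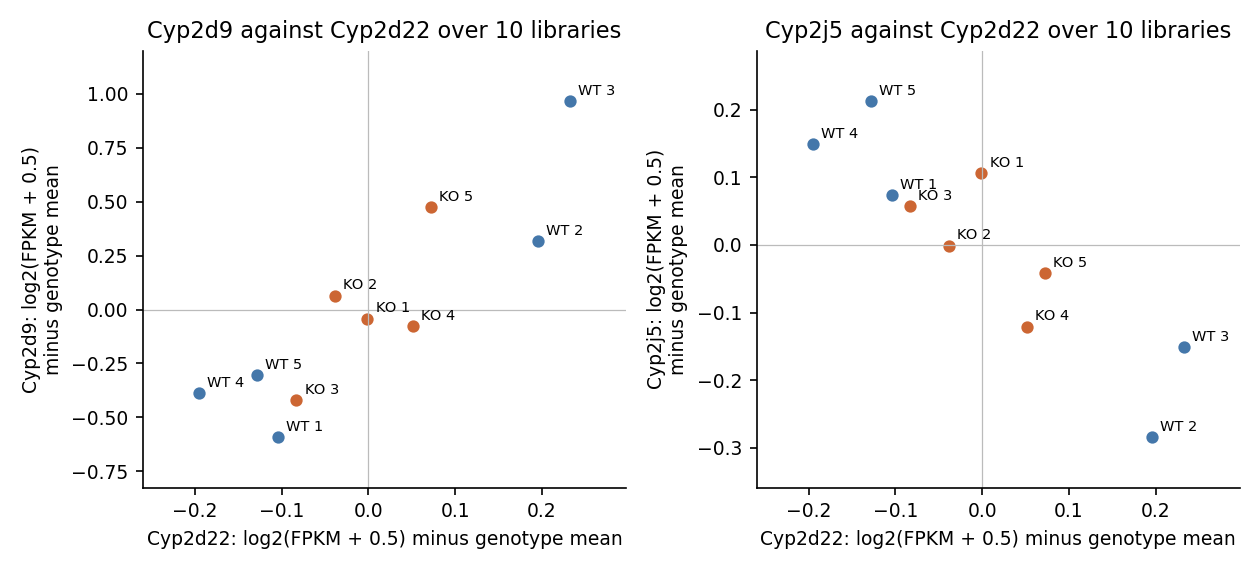
Deviation from the genotype mean, in log2(FPKM + 0.5), of Cyp2d22 (horizontal axes) against Cyp2d9 (left) and Cyp2j5 (right), with 1 point per library, WT in blue and KO in orange. Cyp2d9 goes up with Cyp2d22 (r = 0.88) and Cyp2j5 goes down (r = -0.89), and WT 2 and WT 3 lie at the high end of Cyp2d22 in both panels.

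For each called member, tested genes most like it were taken by Pearson r over the 10 libraries with the genotype mean removed, among 12246 genes. For Cyp2d9 they included Ankrd50 (0.971) and Zfhx3 (0.953). For Cyp2d40 they were Pex11a (0.975), which acts in peroxisome division, Plin5 (0.961), which coats lipid droplets, and Dapk2 (0.956), a protein kinase. For Cyp2j6 they were Meis1 (0.963), Tmem79 (0.919) and Klhl22 (0.909). None of these 8 was called by limma, and 2 of them, Meis1 (0.29) and Tmem79 (-0.28), had an unadjusted p under 0.05. These are among the highest of 12246 correlations over 10 libraries and are given as a description.

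Because Cyp2d9 is male-biased, it was set beside the other sex-biased liver genes. Of 19 tested male-biased genes, a list without Cyp2d9, 6 rose and 13 were not called by limma, with no fall and a median difference of 0.27. Susd4, a regulator of complement, rose from 2.856 ± 1.45 to 10.74 ± 1.04 FPKM (log2 difference 1.83), and Nudt7, a peroxisomal hydrolase of coenzyme A, rose by 0.46. The 6 that rose also include the near-identical Cyp4a12a and Cyp4a12b, both low in WT, and Cyp2u1, a neighbour of Etnppl. The limits of these calls are given below. Of 24 female-biased genes, 9 fell and 15 were not called by limma, with no rise and a median of -0.92, among them Acot3, a peroxisomal thioesterase (-1.43), the steroidogenic P450 Cyp17a1 (-0.83) and the peroxisomal transporter Abcd2 (-0.74). The lists were known to differ in these samples and give no independent support.

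The score of a list is its mean log2 deviation from each gene's mean over the libraries. The female-biased score was 1.0, 0.70, -0.47, 0.91 and 0.70 in WT 1 to WT 5. It was -0.28, -0.67, -0.47, -0.63 and -0.79 in KO 1 to KO 5. WT 3, which held the highest Cyp2d9 of the WT libraries, thus lay within the KO range of this score, although its Etnppl (108.39 FPKM) was the highest of all 10. The male-biased score was -0.47, -0.31, -0.20, -0.27 and 0.02 in WT and 0.46, 0.00, 0.34, -0.02 and 0.44 in KO, where WT 5 overlapped with KO 2 and KO 4. WT 5, with the highest male-biased score of the WT libraries, had a Cyp2d9 of 25.65 FPKM, well below KO 2 and KO 4.

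**Figure D5:**
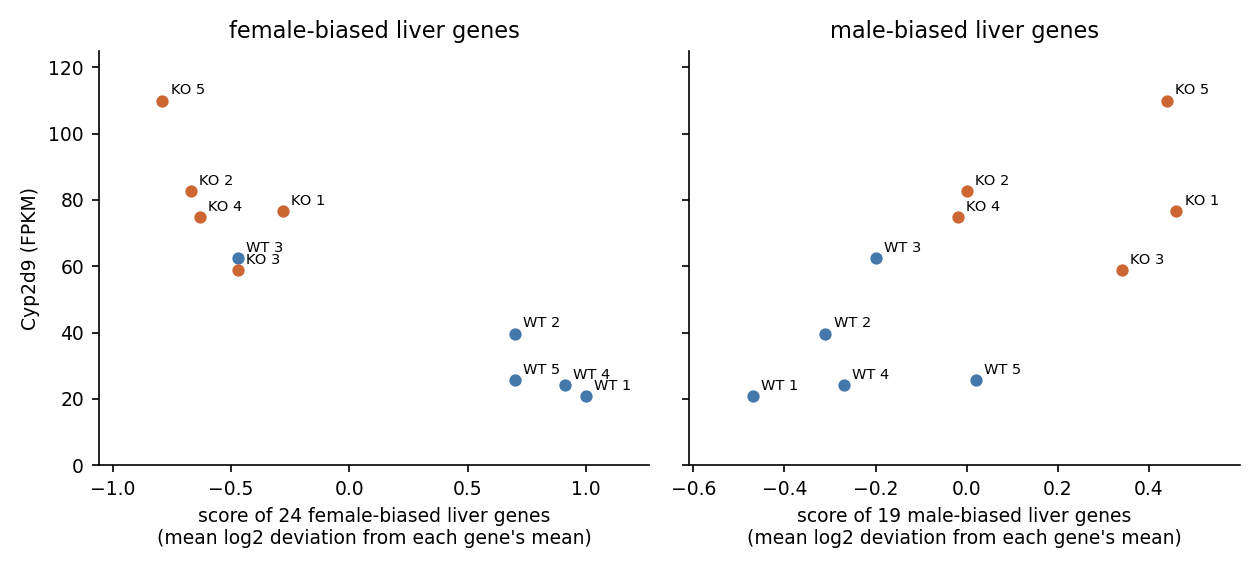
Cyp2d9 in FPKM (vertical axis) against the score of 24 female-biased genes (left) and of 19 male-biased genes (right), 1 point per library, WT in blue and KO in orange. On the left, WT 3 lies with the KO libraries at a score of -0.47, and the other WT libraries lie at 0.70 or above.

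Of 12 genes of growth hormone and sex steroid control, Ghr, the growth hormone receptor, fell (-0.32, limma adjusted p = 0.0431), none rose and 11 did not pass, with a median of -0.26. When 1 library was left out, Ghr kept its call only without WT 3 or WT 4, with an adjusted p of up to 0.0988 without 1 of the other 8. It also lost the call with no filter on low values (limma adjusted p = 0.0832), after upper-quartile scaling (0.0527) and after quantile normalization (0.0634). Cux2, a factor that female liver makes, was at 5.098 ± 2.32 and 1.492 ± 0.727 FPKM (-1.42, limma adjusted p = 0.0532) and passed without WT 3 (-1.77, adjusted p = 0.00408), in a non-robust fit (0.0419) and with array weights (0.0319). Prlr, the prolactin receptor (-0.38, limma adjusted p = 0.0608), passed without WT 2 (adjusted p = 0.0332), among genes averaging 5 FPKM or more (0.0493) and with array weights (0.0414), and Stat5b, which carries the growth hormone signal, was at -0.09 (adjusted p = 0.673).

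Other genes of the P450 system were compared by list. Of 23 tested genes of other Cyp2 subfamilies, 2 rose, 3 fell and 18 did not pass, with a median of -0.30. Cyp2a4, a female-biased steroid hydroxylase, fell from 130.7 ± 44 to 23.83 ± 9.14 FPKM (-2.45), and Cyp2c37 (-0.71) and Cyp2c39 (-0.75) of the Cyp2c cluster fell too. Cyp2u1 rose from 1.654 ± 0.341 to 4.818 ± 2.02 FPKM (1.25). It is a neighbour of Etnppl on chromosome 3, so loss of Etnppl and DNA that flanks the targeted locus cannot be told apart for it. Cyp2f2, a periportal P450, rose by 0.33. Cyp2f2 kept its call only without WT 2, KO 1 or KO 2, with an adjusted p of up to 0.0834 without 1 of the other 7 libraries, and lost it with no filter on low values (0.079). Cyp2d9 (1.30) thus lay near Cyp2u1 in size, and the fall of Cyp2d40 (-0.75) was near those of Cyp2c37 and Cyp2c39.

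Among electron donors and heme genes, Cyb5b and Blvrb fell, while Por and Cyb5a, the microsomal partners of the members, did not pass the test. Of 9 electron donors and membrane partners, Cyb5b, a cytochrome b5 of the outer mitochondrial membrane, fell from 38.23 ± 3.84 to 27.26 ± 2.03 FPKM (-0.48, limma adjusted p = 0.00456) and 8 did not pass, with a median of 0.04. Por, the oxidoreductase that feeds microsomal P450 enzymes, was at 268.6 ± 33.5 and 291.2 ± 51.4 FPKM (0.10, limma adjusted p = 0.677). Cyb5a, the microsomal cytochrome b5, was at -0.11 (adjusted p = 0.453). Of 13 genes of heme synthesis and breakdown, Blvrb, a biliverdin reductase, fell from 82.21 ± 6.42 to 58.97 ± 1.73 FPKM (-0.47, limma adjusted p = 0.00114) and 12 did not pass, with a median of -0.10. Alas1, the rate-limiting enzyme of heme synthesis in liver, was at 254 ± 62.1 and 352.2 ± 54 FPKM (0.50, limma adjusted p = 0.108).

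Around the Cyp2j reaction, none of 3 tested epoxide hydrolases was called by limma, and 0 had an unadjusted p under 0.05. Ephx2, the soluble hydrolase that opens the epoxides of arachidonic acid, was at 682.2 ± 27.2 and 650 ± 27.5 FPKM (-0.07, limma adjusted p = 0.402; the sign turned under quantile normalization). Ephx1, the microsomal hydrolase, was at 0.04 (adjusted p = 0.769; the sign turned without WT 2). Of 20 tested genes of other routes of arachidonic acid, 3 rose, 2 fell and 15 did not pass, with a median of -0.004. Cyp4a12b (1.39) and Cyp4a12a (1.86), near-identical fatty acid hydroxylases of male liver, and Pla2g6, a phospholipase (0.48), rose. Cyp4a12b was at 0.418 ± 0.222 FPKM in WT and 1.946 ± 0.883 in KO. With a WT mean under 0.5 FPKM, it passed the filter only through its KO level. Cyp4a12a was low as well, at 0.994 ± 1.14 FPKM in WT and 4.644 ± 2.97 in KO. Hpgd, which inactivates prostaglandins (-0.41), and Cyp4f13 (-0.32) fell. Cyp4a12a kept its call only without WT 3 or KO 2 (adjusted p up to 0.0827 otherwise, and 0.0638 with no filter on low values), and Cyp4f13 lost it without WT 5, KO 2, KO 4 or KO 5 (up to 0.0546).

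Of 12 periportal genes, 4 rose and 8 were not called (median 0.27). Cps1, the entry enzyme of the urea cycle (0.58), and the lipid droplet protein Hsd17b13 (0.41) were among those that rose. Of the 12 periportal differences, 9 were positive and 3 negative. Of 12 pericentral genes, 1 rose, 2 fell and 9 did not pass (median -0.17), with 4 positive and 8 negative differences. Slc1a2 rose (0.22, limma adjusted p = 0.0325), while Gulo (-0.36) and Axin2 (-0.60, limma adjusted p = 0.045) fell. Their part in the differences of the members was not tested.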

How the data were processed

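Poly-A RNA of 5 WT and 5 KO samples of female liver was described by 1 table of FPKM, which the authors computed and deposited per gene and library. The submitters' processing notes name STAR, RSEM, R 4.0.2, DESeq, DESeq2 and mm10 but assign none of them a step. Which annotation release and strand setting were used is not given in the sources used here, so reads of overlapping genes cannot be told apart. Library totals were not analysed here, and relative depth was read from the steps between the values of 102 low genes.

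Deposited values were tested as log2(FPKM + 0.5) with limma 3.58.1 under R 4.3.3 (two-sided; genotype alone in the model; robust, trended eBayes) over 12247 genes that averaged 0.5 FPKM or more. The fit was tested on simulated data. Exact permutation tests used all arrangements of the libraries, and pair correlations 100000 resamples. Of 277 list entries, 276 matched the table. Gene positions and transcripts came from GENCODE for GRCm38 and promoters from RefSeq GRCm38.p6. Transcripts and promoters were aligned with Biopython 1.88. No protein table was used here.

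The members and lists were chosen with earlier results of these data known. Named genes are the members, the other tested family genes, Etnppl, up to 4 called genes per list by p, role genes of the short lists, the 3 most similar genes per called member and the nearest tested neighbours. Cyp4a12a and Gabpa were named outside this rule, and 1 gene that it gives is not reported here. Alternatives were pseudocounts of 0.1 and 1, no filter or a mean of 5 FPKM, 3 scalings, a non-robust fit, array weights, the replicate number as a block and each library left out.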

Additional observations from a re-analysis of the deposited data

Results flagged for a closer look

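In 6 of 108 groups of 5 libraries, for most of the genes named in the text, 1 library lay far from the other 4 by Dixon's ratio. Chance gives about 1 in 20, or 5.4. Among the members, KO 4 had the lowest Cyp2d10 of the KO libraries, 326.53 FPKM, while the rest held 358.24 to 366.32. Cyp2d40 was at 16.46 FPKM in KO 2 against 11.9 to 13.04, and that highest KO value still lay below every WT library. WT 3 stood apart in Susd4, at 5.38 FPKM against 1.7 to 2.7, and in Cyp4a12a, at 2.99 FPKM against 0.2 to 0.79. Both are male-biased, as is Cyp2d9, which was also highest in WT 3 among the WT libraries. KO 1 stood apart in Cyp2u1, at 8.4 FPKM against 3.44 to 4.17, and in Por, at 203.48 FPKM against 302.36 to 339.82.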

How the results depend on the processing

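Under the 20 alternatives, the 3 called members kept their direction. Without 1 library, which leaves fewer samples, the log2 difference of Cyp2d9 ranged from 1.152 to 1.542, that of Cyp2d40 from -0.828 to -0.61 and that of Cyp2j6 from 0.215 to 0.284. Cyp2d9 lost its call without WT 5 (1.224) or KO 5 (1.181), Cyp2d40 without KO 4 (-0.713) or KO 5 (-0.728), and Cyp2j6 in 8 of 10 cases. Without the filter, which raised the genes tested to 21111, Cyp2j6 (0.247) had an adjusted p of 0.0591. Cyp2d10 was at 0.003 after quantile normalization, 0.024 without WT 5 and 0.007 without KO 4 (range -0.068 to 0.024 without 1 library). Signs also turned for Ephx2 (0.004 after quantile normalization), Ephx1 (-0.004 to 0.088 without 1 library) and Ankrd50 (-0.147 to 0.125, and 0.041 with array weights), and the cause was not tested.

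The labels do not state whether equal replicate numbers pair the samples. Same-numbered libraries correlated at -0.21 to 0.21 over genes, and 2 of 5 WT libraries correlated best with their own number. So few correlations cannot settle whether the samples were paired. With the replicate block, Cyp2d9 (1.30, limma adjusted p = 0.0655), Cyp2d40 (-0.747, 0.0587) and Cyp2j6 (0.247, 0.101) were not called. Nor were Ghr (0.0995), Cyp2f2 (0.0789), Cyp4f13 (0.0549), Pla2g6 (0.063) and Cyp17a1 (0.0505), while Prlr passed (0.0326).

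Over all genes, 488 higher and 558 lower calls became 294 and 370 with no filter and 230 and 321 with the replicate block. Without 1 library they ranged from 258 to 454 and from 316 to 541, both lowest without KO 5. The share of calls that were higher was 46.7% as deposited, 53.6% after median-of-ratios scaling (578 higher, 500 lower), 52% after upper-quartile scaling (554, 511) and 56.1% after quantile normalization (612, 479). The number of reads behind each FPKM is unknown, so no counting interval can be given, and with 5 libraries per genotype the smallest exact p is 0.0079.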
